A study of Mus musculus with 12 samples.

Results

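The transcripts described are those of 10 genes that carry a calcium signal from the cell surface to the nucleus of a lymphocyte: the calcium sensors Stim1 and Stim2, the channel subunit Orai1, the calcineurin catalytic subunits Ppp3ca, Ppp3cb and Ppp3cc, and the transcription factors Nfatc1, Nfatc2, Nfatc3 and Nfat5. They were taken by gene name from a table of 41128 genes, and all 10 were present and measured in every library. RNA was sequenced from splenic lymphocytes of C57BL/6J mice, 6 to 8 weeks old, in 12 libraries, which formed 4 groups of 3, namely CD43-negative resting B cells (replicates 1 to 3) and CD4+CD62L+ naive T cells (replicates 4 to 6), each of female and of male origin. No group carried a treatment or a genetic change, and the replicates were pools of mice, so the errors given are a spread between pools.

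When an antigen receptor is engaged, phospholipase C gamma makes inositol trisphosphate, which opens channels in the endoplasmic reticulum and empties its calcium store. The sensors STIM1 and STIM2 detect the emptied store and open ORAI channels in the plasma membrane. Calcium bound to calmodulin then activates the phosphatase calcineurin, which strips phosphates from the NFAT proteins NFATC1 to NFATC4 and so lets them enter the nucleus. Ciclosporin and tacrolimus suppress lymphocytes by blocking calcineurin. NFAT5 shares the DNA-binding domain of the family but lacks the calcineurin docking region and is known for its response to hypertonic stress. The cells here were labelled resting B and naive T cells and carried no treatment, and whether a signal had reached them was not tested.

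RefSeq promoter windows (GRCm38.p6, the build that the labels name as mm10) were used here for 7 of the 10 genes, in 9 windows of 250 bases before a transcription start. The windows below are printed for Orai1 and Nfat5, which had the largest differences towards T and B cells among the genes with a window, for Nfatc2, the NFAT gene whose difference was opposite in direction to that of Nfat5, and for Ppp3cb, whose ranges in B and T cells overlapped. Capitals mark GGAAA, the core that NFAT proteins bind, read on either strand (TTTCC on the printed strand), and no other motif was searched. Each is printed 5′ to 3′ along the gene. The Orai1 window lies at chr5:123014824-123015073 on the plus strand, that of Nfat5 at chr8:107293220-107293469 on the plus strand, that of Nfatc2 at chr2:168601658-168601907 on the minus strand and that of Ppp3cb at chr14:20546574-20546823 on the minus strand, and each ends where its gene begins in the GENCODE M21 annotation. Nfatc2 has another window inside the gene, at chr2:168590366-168590615, which is not printed.
Orai1: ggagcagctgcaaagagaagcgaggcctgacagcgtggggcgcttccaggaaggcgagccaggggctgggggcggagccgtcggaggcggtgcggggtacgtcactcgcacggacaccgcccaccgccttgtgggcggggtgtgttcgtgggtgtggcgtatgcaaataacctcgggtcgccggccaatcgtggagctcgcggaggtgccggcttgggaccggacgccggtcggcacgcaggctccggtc
Nfat5: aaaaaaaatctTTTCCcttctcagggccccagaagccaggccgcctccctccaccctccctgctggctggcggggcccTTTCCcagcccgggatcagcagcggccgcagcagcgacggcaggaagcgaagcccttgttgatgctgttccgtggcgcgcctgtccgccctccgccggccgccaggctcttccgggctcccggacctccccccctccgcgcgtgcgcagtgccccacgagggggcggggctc
Nfatc2: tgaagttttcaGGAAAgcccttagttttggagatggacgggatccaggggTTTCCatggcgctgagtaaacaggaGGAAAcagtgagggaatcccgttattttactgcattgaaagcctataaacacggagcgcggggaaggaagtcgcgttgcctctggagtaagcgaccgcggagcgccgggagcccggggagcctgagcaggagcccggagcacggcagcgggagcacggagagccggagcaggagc
Ppp3cb: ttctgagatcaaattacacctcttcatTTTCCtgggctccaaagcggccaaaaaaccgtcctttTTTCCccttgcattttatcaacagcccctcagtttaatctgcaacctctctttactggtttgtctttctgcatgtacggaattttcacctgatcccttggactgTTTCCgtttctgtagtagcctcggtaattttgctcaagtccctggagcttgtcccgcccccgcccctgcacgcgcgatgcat
The motif was absent from the Orai1 window, occurred 2 times in that of Nfat5 and 3 times in those of Nfatc2 and of Ppp3cb. The Nfatc2 window inside the gene held it 1 time, with a G and C content of 67.6% and 16 CpG sites. Among all 9 windows 5 held it, and 55.6% of 32851 promoter windows of the same length held it too. The G and C content was 70.8% in Orai1, 71.6% in Nfat5, 59.6% in Nfatc2 and 48.4% in Ppp3cb, against a median of 52.4% over all promoters. The number of CpG sites was 30 in Orai1, 23 in Nfat5, 19 in Nfatc2 and 10 in Ppp3cb, against a median of 6. A match is a description of the letters and not of a bound site.

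The values are adjusted TPM (the authors' name for their transcript abundance). TPM is by definition scaled by transcript length, and levels were compared between genes on that basis. How the authors computed and adjusted it is not given in the sources used here. Between libraries the values were used as deposited, with a scaling whose method is not given either. The calls of Stim2, Nfatc2 and Nfatc3 depended on it. The deposited lower and upper bounds of the 10 genes lay close together, with the upper bound 1.04 to 1.35 times the lower one and a median of 1.12. Differences are given as log2(adjusted TPM + 1) in B minus T cells with a standard error (SE), tested with limma across 12520 genes that reached 1 adjusted TPM in at least 3 libraries, and were called where the Benjamini-Hochberg adjusted p was under 0.05. All 10 genes passed that filter. Gene positions are those of GENCODE M21 on GRCm38. In bulk libraries of this kind, fewer cells of a type and less RNA per cell cannot be told apart.

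B and T cell markers matched the labelled lineage in all 12 libraries, with the summed level of 5 B cell markers at 2610 to 2972 in B cells against 5.34 or less in T cells, and that of 5 T cell markers at 1017 to 1194 in T cells and 9.76 to 14.1 in B cells. Hemoglobin transcripts of erythroid cells summed to 0.558 to 196 in B cells versus 1.94 to 42.9 in T cells, and platelet markers to 4.05 to 16.9 and 0.343 to 0.612. Myeloid markers summed to 10.3 to 14.3 in B cells versus 2.62 to 5.76 in T cells, NK cell markers to at most 1.38 in any library and plasma cell markers to at most 7.67. The part of these cells in the differences between B and T cells was not tested. In the T cell libraries numbered 6, marker transcripts of regulatory T cells were higher than in the other T cell libraries. Among them was Il2ra, which encodes the CD25 that the sort was to leave out. Which cells they came from was not tested, and results with and without these libraries are given below. In the female B cell replicate 1 and the male T cell replicate 6, a single small RNA, Yam1, held 32.2% and 37.4% of the total, against 2.03% to 17.8% in the other 10 libraries.

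Resting B cells and naive T cells differed in the levels of most of these transcripts. Of the 10 genes, 4 were higher in B cells (Ppp3ca, Nfat5, Nfatc1 and Ppp3cc) and 4 were higher in T cells (Orai1, Stim1, Nfatc2 and Stim2), while Nfatc3 and Ppp3cb did not pass the test. Among all genes tested, 31.4% were called towards B cells and 41.6% towards T cells, so calls of this kind were common and the count of 8 in 10 is not far from the background. The same 4 and 4 genes showed no overlap between the 6 B cell and the 6 T cell libraries, a separation seen towards B cells in 24.2% and towards T cells in 29.7% of all genes tested. For 7 of the 8 the deposited bounds did not overlap either, Nfatc2 being the exception. A called difference of at least 1 on the log2 scale was found in 5 of the 10, against 21.6% of the genes tested. The median difference of the 10 was 0.06, against -0.09 over all genes tested, and the median size regardless of direction was 0.88, against 0.40.

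**Figure D1:**
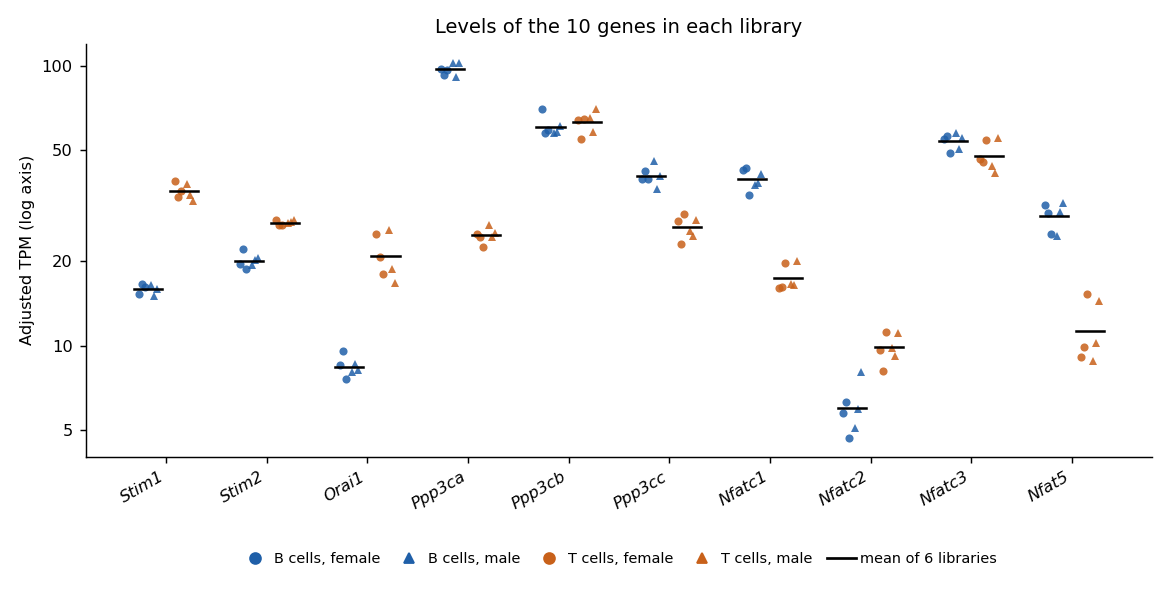
Adjusted TPM of the 10 genes in each of the 12 libraries, on a log axis. Blue marks are B cells and orange marks T cells, circles are female and triangles male pools, and each black line is the mean of 6 libraries. Ppp3ca stood at 97.2 in B cells against 24.8 in T cells, while Ppp3cb and Nfatc3 overlapped between the cell types.

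**Figure D2:**
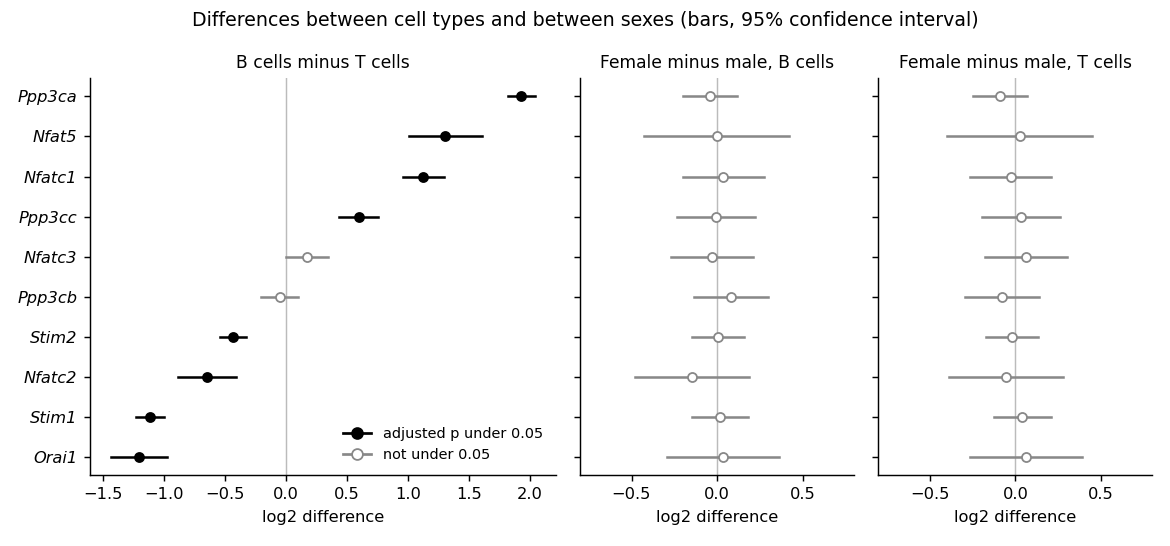
Log2 differences with their 95% confidence intervals for B minus T cells (left), and for female minus male in B cells (middle) and in T cells (right). Filled black points had an adjusted p under 0.05. In the left panel 8 of the 10 genes were called, from 1.93 for Ppp3ca to -1.20 for Orai1, and neither sex comparison called any.

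All 3 genes of store-operated calcium entry among the 10 were higher in T cells. Of 9 partner genes of this step, described below, 3 were higher in B cells and 6 in T cells. Stim1, the principal sensor of store depletion (chromosome 7, 102267806 to 102437319, plus strand), ranged in B cells from 15.1 to 16.6 adjusted TPM with a median of 16.1. In T cells it ranged from 32.8 to 38.6 with a median of 35.2. Every T cell library was thus above every B cell library. The means were 15.9 ± 0.625 in B cells versus 35.6 ± 2.27 in T cells (SD, n = 6), a ratio of means of 2.24, and the log2 difference was -1.11 (SE 0.05, limma adjusted p = 7.1e-10).

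Stim2, the sensor that responds to smaller losses of store calcium (chromosome 5, 53998499 to 54121057, plus strand), was also higher in T cells but by less. Its B cell levels ran from 18.8 through a median of 19.8 to 22.2, and its T cell levels from 27.0 through 27.5 to 28.1 adjusted TPM. The T cell values were the most uniform of any of the 10 genes in either cell type, with a coefficient of variation of 1.77%. The log2 difference was -0.44 (SE 0.05, limma adjusted p = 4.2e-06). Rescaling every library to the same total moved the median difference of all genes tested from -0.09 to 0.25, and the Stim2 difference then became -0.07 with a limma adjusted p of 0.78. Relative to that median the Stim2 difference was -0.35 as deposited and -0.32 after rescaling. A factor per library moves a gene and the median nearly alike, so this closeness does not show which scaling is right.

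Orai1 encodes the pore of the channel (chromosome 5, 123015074 to 123030456, plus strand, with the G and C rich promoter shown above). Its levels were 7.57 to 9.55 adjusted TPM in B cells, with a median of 8.34, and 16.8 to 25.9 in T cells, with a median of 19.8. The groups did not overlap, although the T cell libraries were more scattered, with a coefficient of variation of 18.2% against 7.95% in B cells. The log2 difference of -1.20 (SE 0.11, limma adjusted p = 3.5e-07) was the largest towards T cells among the 10 genes, and the means were 8.41 ± 0.668 and 20.9 ± 3.80.

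The mix of paralogs also differed, which can be read as a ratio of levels within a library and does not depend on the scaling between libraries. How often ratios of other gene pairs separate was not computed. Single genes separated towards B cells in 24.2% and towards T cells in 29.7% of all genes tested, so a separated ratio is not particular to these genes. Stim1 made up 44.2% of the summed STIM level in B cells versus 56.4% in T cells. The Stim2/Stim1 ratio was 1.16 to 1.34 in B cells versus 0.722 to 0.855 in T cells. An exact permutation test gave p = 0.0022, the smallest that 924 arrangements can give (adjusted over 8 ratios, p = 0.0025). Stim2 was thus the more abundant sensor transcript in all 6 B cell libraries and Stim1 in all 6 T cell libraries. Protein levels were not measured. Orai1 held 15.1% of the ORAI sum in B cells, the lowest share there, versus 23.9% in T cells. Orai2 held 42.4% in B cells versus 67.8% in T cells. Orai3, which is found in mammals only, held 42.5% in B cells versus 8.34% in T cells. The Orai1/Orai2 ratio had a geometric mean of 0.356 in B cells versus 0.350 in T cells, with ranges of 0.303 to 0.458 and 0.278 to 0.430 that overlapped (two-sided exact permutation p = 0.85).

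The transcripts of the calcineurin catalytic subunits differed in their proportions between the cell types. Ppp3ca, which encodes the alpha subunit (chromosome 3, 136670124 to 136937727, plus strand), had the largest difference of the 10 genes. In B cells its levels were 91.3 to 102.6 adjusted TPM with a median of 97.3, and in T cells 22.4 to 26.9 with a median of 24.8. The lowest B cell library was far above the highest T cell library. The log2 difference was 1.93 (SE 0.05, limma adjusted p = 1.5e-12), and the means of 97.2 ± 4.73 and 24.8 ± 1.46 stood in a ratio of 3.93.

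Ppp3cc, which encodes the gamma subunit (chromosome 14, 70217865 to 70289471, minus strand), was higher in B cells by a smaller margin. It ranged from 36.1 to 45.5 adjusted TPM in B cells with a median of 40.0, and from 23.0 to 29.5 in T cells with a median of 26.7. The groups did not overlap, and the log2 difference was 0.60 (SE 0.07, limma adjusted p = 8.5e-06).

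Ppp3cb, which encodes the beta subunit (chromosome 14, 20499364 to 20546573, minus strand), overlapped between the cell types. Its levels were 57.3 to 70.3 adjusted TPM in B cells with a median of 58.5, and 54.5 to 70.2 in T cells with a median of 64.3. The log2 difference was -0.05 with a 95% confidence interval of -0.20 to 0.10 (limma adjusted p = 0.53), and its sign changed under both other scalings, with 0.035 under median-ratio scaling and 0.33 after rescaling to the same total, and to 0.0014 without both T cell libraries numbered 6. The interval leaves room for a difference of up to 0.20 on the log2 scale, and the call did not change under these alternatives.

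Ppp3ca was thus the leading catalytic subunit transcript in B cells and Ppp3cb in T cells. Ppp3ca held 49.0% ± 1.20 of the catalytic sum in B cells versus 21.8% ± 1.72 in T cells (SD, n = 6). Ppp3cb held 30.5% ± 1.97 and 55.0% ± 1.15, and Ppp3cc 20.4% ± 1.30 and 23.2% ± 1.25. The Ppp3cb/Ppp3ca ratio lay between 0.559 and 0.720 in B cells and between 2.24 and 2.88 in T cells, and the Ppp3cc/Ppp3ca ratio between 0.395 and 0.456 and between 0.945 and 1.32. Both differed with an exact permutation p of 0.0022 (adjusted over 8 ratios, p = 0.0025). The summed level of the 3 subunits was 198.3 ± 8.69 adjusted TPM in B cells versus 114.0 ± 7.91 in T cells.

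**Figure D3:**
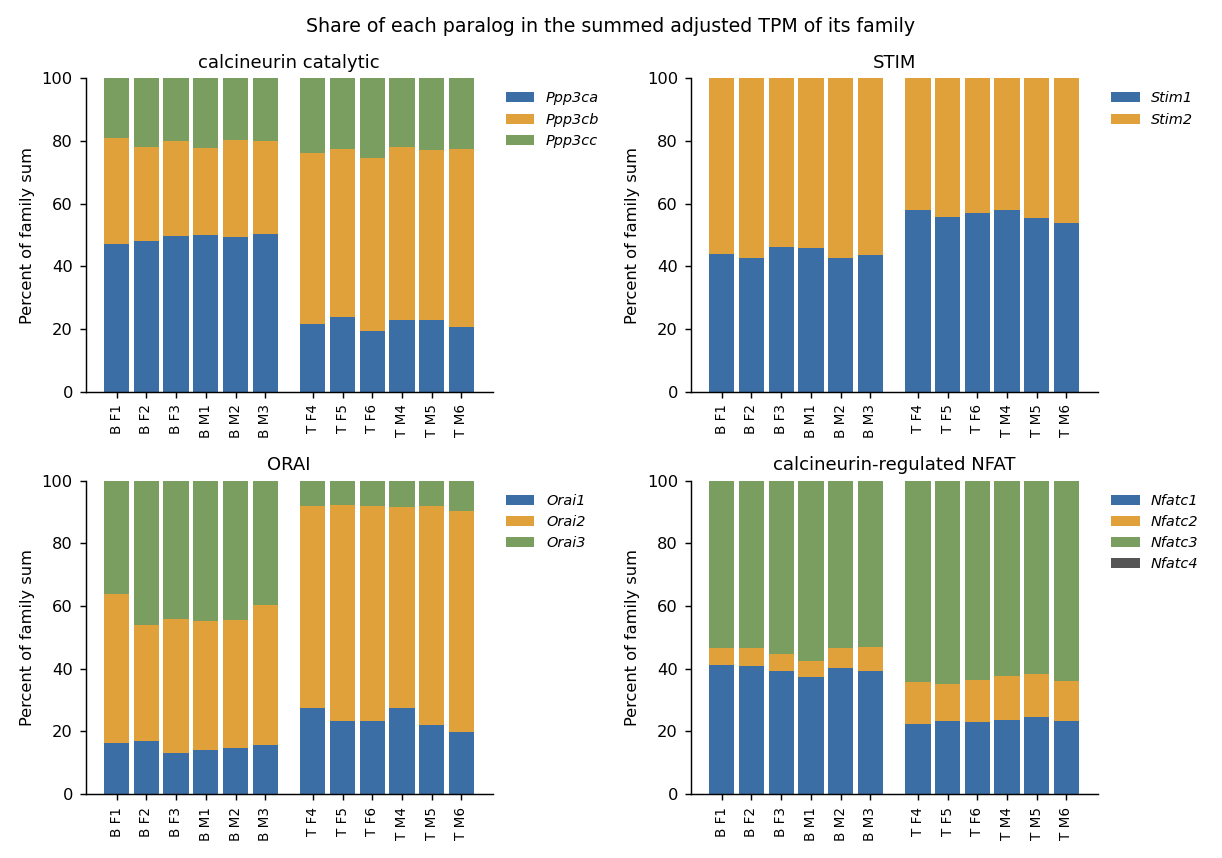
Percent of the summed adjusted TPM of its family held by each paralog, with 1 bar per library (B or T cell, F female or M male, replicate number). Ppp3ca held 49.0% of the calcineurin catalytic sum in B cells versus 21.8% in T cells, and Orai3 held 42.5% of the ORAI sum in B cells against 8.34% in T cells. Nfatc4 is too low to be seen.

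Among the transcription factors, Nfatc1 and Nfat5 were higher in B cells and Nfatc2 in T cells. Nfatc1, whose short isoform is induced when lymphocytes are activated (chromosome 18, 80606205 to 80713071, minus strand), ranged from 34.6 to 43.0 adjusted TPM in B cells with a median of 39.5. In T cells it ranged from 16.1 to 19.99 with a median of 16.5. The groups lay far apart, and the log2 difference was 1.13 (SE 0.08, limma adjusted p = 2.5e-08). The table gives a single value per gene, so the short isoform was not seen on its own.

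Nfatc2, the NFAT protein usually described as present in resting T cells (chromosome 2, 168476410 to 168601657, minus strand), had the lowest mean of the 10 genes in both cell types, although Nfat5 was below it in 2 T cell libraries. Its levels were 4.68 to 8.03 adjusted TPM in B cells with a median of 5.83, and 8.13 to 11.2 in T cells with a median of 9.71. The highest B cell library and the lowest T cell library were only just apart, and their deposited bounds overlapped. The log2 difference was -0.65 (SE 0.11, limma adjusted p = 0.00014). After rescaling to the same total it was -0.32 with a limma adjusted p of 0.15. Relative to the median of all genes tested it was -0.56 as deposited and -0.57 after rescaling, a closeness that the rescaling itself nearly fixes.

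Nfatc3 was the most abundant NFAT transcript in both cell types (chromosome 8, 106058840 to 106130537, plus strand). Its levels were 48.8 to 57.4 adjusted TPM in B cells with a median of 55.0, and 41.4 to 55.2 in T cells with a median of 45.9. The groups overlapped through the T cell libraries numbered 6, which are described below. The log2 difference was 0.18 with a 95% confidence interval of 0.01 to 0.35 and an SE of 0.08 (limma adjusted p = 0.060). It was called under 8 alternatives, among them median-ratio scaling (0.26, limma adjusted p = 0.0094) and rescaling to the same total (0.55, limma adjusted p = 0.011).

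Nfat5, the osmotic stress factor (chromosome 8, 107293470 to 107379517, plus strand), had the largest difference of the NFAT genes. In B cells its levels were 24.7 to 32.3 adjusted TPM with a median of 29.9, and in T cells 8.82 to 15.3 with a median of 10.1. The groups did not overlap, and the T cell libraries varied more than those of any other of the 10 genes, with a coefficient of variation of 24.9%. The log2 difference was 1.31 (SE 0.14, limma adjusted p = 2.0e-06).

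Nfatc3 held 54.3% of the summed level of the calcineurin-regulated NFAT genes in B cells versus 63.5% in T cells. Nfatc1 held 39.7% and 23.3%, and Nfatc2 5.99% and 13.1%. Nfatc4 was at most 0.00025 adjusted TPM in any library. The Nfatc1/Nfatc2 ratio was 5.10 to 7.39 in B cells versus 1.67 to 2.00 in T cells, the Nfatc3/Nfatc2 ratio 6.88 to 11.3 and 4.46 to 5.57, and the Nfat5/Nfatc2 ratio 4.02 to 5.53 and 0.899 to 1.36. None of these 3 ratios overlapped between the cell types (exact permutation p = 0.0022 for each, and 0.0025 adjusted over 8 ratios). For Nfatc1/Nfatc2 and Nfat5/Nfatc2 this follows from the genes themselves, which separated in opposite directions, so the ratio adds no separate support. All 3 ratios also share Nfatc2.

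Ranked by mean level, B cells ran from Ppp3ca (97.2 adjusted TPM, above 94.8% of the genes tested) through Ppp3cb (60.5), Nfatc3 (53.8), Ppp3cc (40.5), Nfatc1 (39.4), Nfat5 (29.0), Stim2 (20.1), Stim1 (15.9) and Orai1 (8.41) to Nfatc2 (5.96). The neighbours whose ranges overlapped were Ppp3cb with Nfatc3, Ppp3cc with Nfatc1, and Orai1 with Nfatc2. Within libraries, Ppp3cb was above Nfatc3 in 5 of 6, Ppp3cc above Nfatc1 in 2 of 6 and Orai1 above Nfatc2 in 6 of 6. In T cells the order was Ppp3cb (62.8), Nfatc3 (47.7), Stim1 (35.6), Stim2 (27.5), Ppp3cc (26.4), Ppp3ca (24.8), Orai1 (20.9), Nfatc1 (17.5), Nfat5 (11.3) and Nfatc2 (9.85). There the ranges of neighbours did not overlap for Nfatc3 and Stim1, Stim1 and Stim2, and Nfatc1 and Nfat5. Ppp3cb was above Nfatc3 and Ppp3ca above Orai1 in 6 of 6 libraries although their ranges overlapped, Stim2 was above Ppp3cc in 5, and Ppp3cc above Ppp3ca, Orai1 above Nfatc1 and Nfat5 above Nfatc2 in 4 each.

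The T cell libraries that share the replicate number 6 stood apart from the other 4 T cell libraries. In both the female and the male library numbered 6, Nfatc1, Nfatc2, Nfatc3, Nfat5 and Ppp3cc were above all 4 others and Orai1 was below them. Nfat5 was 15.3 and 14.4 adjusted TPM there against 8.82 to 10.2 elsewhere. Nfatc3 was 54.2 and 55.2 against 41.4 to 46.5, and Nfatc1 was 19.7 and 19.99 against 16.1 to 16.5. All 4 NFAT genes were thus higher in this pair of libraries, by a ratio of means of 1.21 for Nfatc1 to 1.56 for Nfat5. Over all genes tested, 17.0% were above and 18.6% below the other 4 libraries in this pair.

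Orai1 was 18.0 and 16.8 adjusted TPM in the libraries numbered 6 against 18.8 to 25.9 in the others, and it was highest, at 25.1 and 25.9, in those numbered 4, where Stim1 was also above the rest and Nfat5 below it. In the libraries numbered 5, Ppp3cb, Ppp3cc and Nfatc2 were below the other 4. Over all genes tested 19.0% were above and 8.39% below in the pair numbered 4, and 5.52% and 7.16% in the pair numbered 5.

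Markers of regulatory T cells moved with the number 6. All 3 of the markers listed were higher there: Foxp3, the factor that defines these cells, was 2.57 and 1.82 adjusted TPM against 0.440 to 0.735 in the other T cell libraries, Ikzf2 was 13.4 and 11.3 against 1.07 to 2.07, and Il2ra, which encodes the CD25 that the sort excluded per the labels, was 4.999 and 4.11 against 0.158 to 0.340. The summed level of the 3 was 17.2 to 21.0 against 1.75 to 3.14. Ctla4, an inhibitory receptor of activated and regulatory T cells, was 13.2 and 11.4 against 1.57 to 2.15. The B cell markers summed to 2.60 to 5.34 against 0.900 to 2.00 and the myeloid markers to 3.15 to 5.76 against 2.62 to 3.01, while the T cell markers summed to 1017 to 1052 against 1132 to 1194. The CD8 T cell markers summed to 5.48 to 6.90 against 6.94 to 8.27, and the NK, erythroid, platelet and plasma cell sums overlapped.

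The difference between the pairs of libraries was found after the values were seen and carries no test. The part of regulatory T cells, activated T cells or any other cells in it was not tested. The contrast of B and T cells was refitted without both libraries numbered 6. The 8 called genes kept their calls and Nfatc3 joined them at 0.28 (SE 0.06, limma adjusted p = 0.0018), which gave 5 genes towards B cells and 4 towards T cells. Of all 12520 genes tested, that refit called 3985 towards B cells and 5248 towards T cells, so such calls were again common. The T cell levels of Nfatc1 became 16.3 ± 0.207 adjusted TPM (SD, n = 4), against 17.5 ± 1.81 with all 6, and those of Nfat5 9.51 ± 0.662 against 11.3 ± 2.81. The Nfat5 difference was then 1.51 (SE 0.09) and the Orai1 difference -1.32 (SE 0.10).

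**Figure D4:**
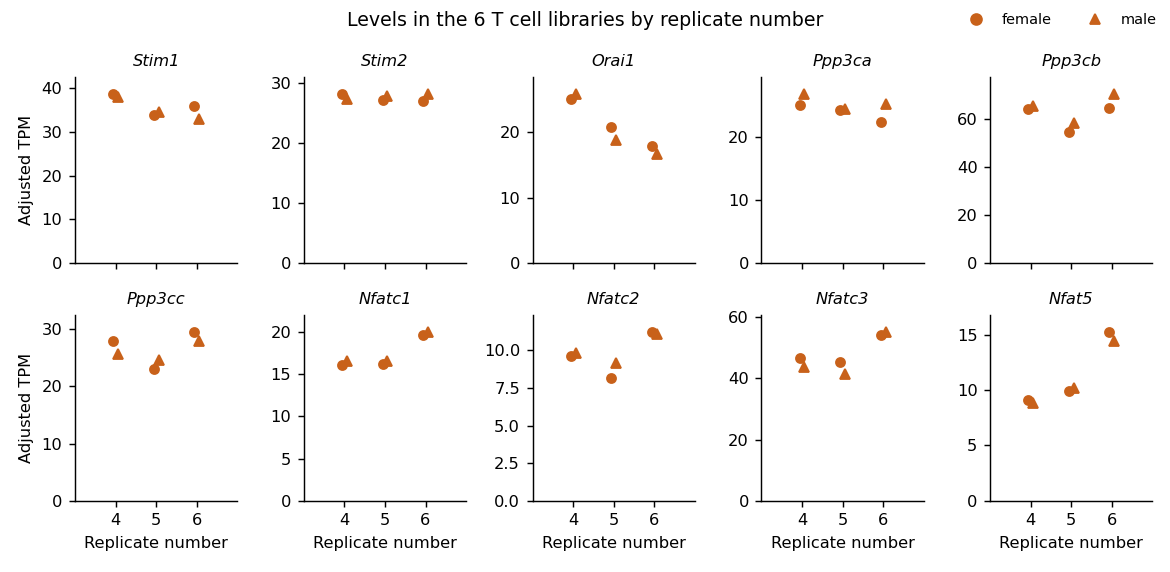
Adjusted TPM of the 10 genes in the 6 T cell libraries by replicate number, circles female and triangles male, with each axis starting at 0. Nfat5 stood at 15.3 and 14.4 in the libraries numbered 6 against 8.82 to 10.2 in the others, while Stim2 lay between 27.0 and 28.1 throughout.

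Female and male pools were compared within each cell type. None of the 10 genes was called in B cells, in T cells or for the difference of the sex effects, and none had an unadjusted p under 0.05 in any of the 3 comparisons. Of all genes tested, 0.144% were called between the sexes in B cells (18 genes, 373 at an unadjusted p under 0.05), 0.104% in T cells (13 genes, 319 unadjusted) and 0% for the difference of the sex effects (295 unadjusted). The largest sex difference among the 10 was that of Nfatc2 in B cells, with 5.75, 6.30 and 4.68 adjusted TPM in females and 5.09, 5.91 and 8.03 in males. These groups overlapped, and the log2 difference was -0.15 with a 95% confidence interval of -0.48 to 0.19. In T cells it was that of Ppp3ca, with 25.1, 24.4 and 22.4 in females and 26.9, 24.4 and 25.4 in males and a log2 difference of -0.09 with an interval of -0.25 to 0.07. The width of the intervals varied by gene, and the widest of the 10 reached 0.42 to either side of the estimate within a cell type and 0.60 for the difference of the sex effects.

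The genes with the most similar profiles over the 12 libraries were found by the root mean square difference of centred log2 values. Nearest to Ppp3ca were Ighv14-1 at 0.079, Txndc5 at 0.079 and Smim14 at 0.082, against a median of 1.03 over all genes tested. Ighv14-1 is a heavy chain variable segment listed at a mean of 2.93 adjusted TPM in B cells and 0.024 in T cells. At such low levels the added 1 compresses log2 differences, so its likeness to Ppp3ca holds on that scale only. Txndc5 encodes an endoplasmic reticulum oxidoreductase, and Smim14 a small membrane protein. Nearest to Orai1 were Rpsa-ps10 at 0.107, Rab3d at 0.108 and Tex264 at 0.109, against a median of 0.616. Rpsa-ps10 is a pseudogene that can share reads with its parent gene, so its value is uncertain, while Rab3d encodes a small GTPase of secretory vesicles and Tex264 a receptor for autophagy of the endoplasmic reticulum.

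Around the 10 genes, 74 others of the pathway were listed by role. Of these, 63 passed the filter, 19 were higher in B cells, 31 were higher in T cells, 13 were not called and 11 were under the filter. The median log2 difference of the 63 was -0.14, against -0.09 over all genes tested, and no gene of the list was called between the sexes. The counts by role that follow stand against the 31.4% of all genes called towards B cells and the 41.6% called towards T cells, and with 4 to 10 genes a role they are descriptions only. The number higher in T cells was 15 after rescaling to the same total, under which 4812 of all genes were called towards B cells and 1985 towards T cells in place of 3926 and 5208.

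Of the 7 genes of store release, upstream of Stim1, 4 were higher in B cells and 3 the other way. Plcg2, the phospholipase C gamma of the B cell receptor, was 116.1 ± 4.88 adjusted TPM in B cells versus 0.018 to 0.359 in T cells. Plcg1, that of the T cell receptor, was 11.4 ± 0.785 and 101.2 ± 6.50 (log2 difference -3.05). Itpr1, a receptor channel for inositol trisphosphate, was higher in B cells by 1.13 on the log2 scale, and Itpkb, the kinase that consumes inositol trisphosphate, was lower there with a difference of -0.95.

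Beside Stim1 and Orai1, the partners of store-operated entry had 3 of 9 genes higher in B cells and 6 the other way. Tmem66 (Saraf), which encodes a factor that turns store-operated entry off, was 10.1 ± 1.60 adjusted TPM in B cells versus 253.2 ± 23.7 in T cells, a log2 difference of -4.52. Kcnn4, a calcium-activated potassium channel, was 4.09 ± 0.635 and 73.5 ± 9.46 (log2 difference -3.87). Orai3 was higher in B cells by 1.58 and Kcna3, a voltage-gated potassium channel, by 0.30 on the log2 scale. The Kcna3 ranges overlapped, and with female libraries alone it was at 0.26 and not called (limma adjusted p = 0.14). Among the genes of calcium clearance, 3 of 6 were higher in B cells and 2 the other way. Atp2a3, a pump that refills the store, was higher in B cells by 1.04. Micu2, a regulator of calcium uptake into mitochondria, and Mcu, the pore of the mitochondrial uniporter, had differences of -0.38 and -0.21. After rescaling to the same total Micu2 was at -0.01 (limma adjusted p = 0.96) and the sign of Mcu turned to 0.13, and neither was called. Mcu also lost its call with same-numbered T cell libraries averaged (limma adjusted p = 0.064).

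Calcineurin works with calmodulin, a regulatory subunit and inhibitors. Of 4 genes for calmodulin and the regulatory B subunit, none was higher in B cells and 2 passed the test towards T cells, Calm3 at -0.20 and Ppp3r1, the regulatory subunit, at -0.14 (limma adjusted p = 0.038 and 0.047). Leaving out 1 library at a time, Calm3 lost its call in 8 of 12 fits and Ppp3r1 in 10. Both lost it with same-numbered T cell libraries averaged, which allows for their pairing (limma adjusted p = 0.067 and 0.10), lost it under median-ratio scaling and turned positive, at 0.18 and 0.24, after rescaling to the same total. Of 7 inhibitors and immunophilins, 1 was higher in B cells and 4 the other way. Rcan3, an inhibitor of calcineurin, was 2.08 ± 0.222 adjusted TPM in B cells versus 22.8 ± 1.65 in T cells (log2 difference -2.95). Fkbp1a, which encodes the protein that binds tacrolimus, had a difference of -1.28, and Akap5, a scaffold that anchors calcineurin, one of 0.75.

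The NFAT kinases and partners had 2 of 10 genes higher in B cells and 4 the other way. Lrrk2, a large kinase reported as a regulator of NFAT location, was 130.6 ± 3.54 adjusted TPM in B cells versus 0.121 ± 0.185 in T cells. Homer3, which competes with calcineurin for NFAT, was higher in B cells by 0.58, while the NFAT kinases Dyrk2 and Csnk1a1 had differences of -0.92 and -0.55. After rescaling to the same total Csnk1a1 was at -0.16 and no longer called (limma adjusted p = 0.52). Of 6 calmodulin-dependent kinases, 3 were higher in B cells, among them Camk2d by 1.71 and Camkk2 by 0.57, and 3 in T cells, among them Camk4 at -4.33 and Camk2g at -1.36.

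Of 10 genes that NFAT is known to induce, 2 were higher in B cells, 5 were higher in T cells and 3 were not called. Irf4, a lymphocyte transcription factor, was 52.6 ± 4.85 adjusted TPM in B cells versus 1.37 ± 0.446 in T cells, and Egr3, an early response factor, 10.1 ± 1.82 and 1.37 ± 0.254. Cd40lg, the ligand by which T cells help B cells, was 0.062 ± 0.014 and 21.6 ± 2.81, and Fasl, a death ligand, 0.058 ± 0.018 and 6.89 ± 1.01. The cytokine genes Il2 and Ifng did not pass the filter, with at most 0.216 and 0.307 adjusted TPM in any library. Of 4 osmotic targets of Nfat5, Slc38a2, an amino acid transporter, was higher in B cells by 0.26, and Akr1b3 and Slc5a3, which make or import osmolytes, had differences of -0.66 and -0.58. After rescaling to the same total these were -0.28 and -0.29, and neither was called (limma adjusted p = 0.22 and 0.17). With male libraries alone Slc38a2 was at 0.22 and Slc5a3 at -0.42, and neither was called (limma adjusted p = 0.091 and 0.17).

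**Figure D5:**
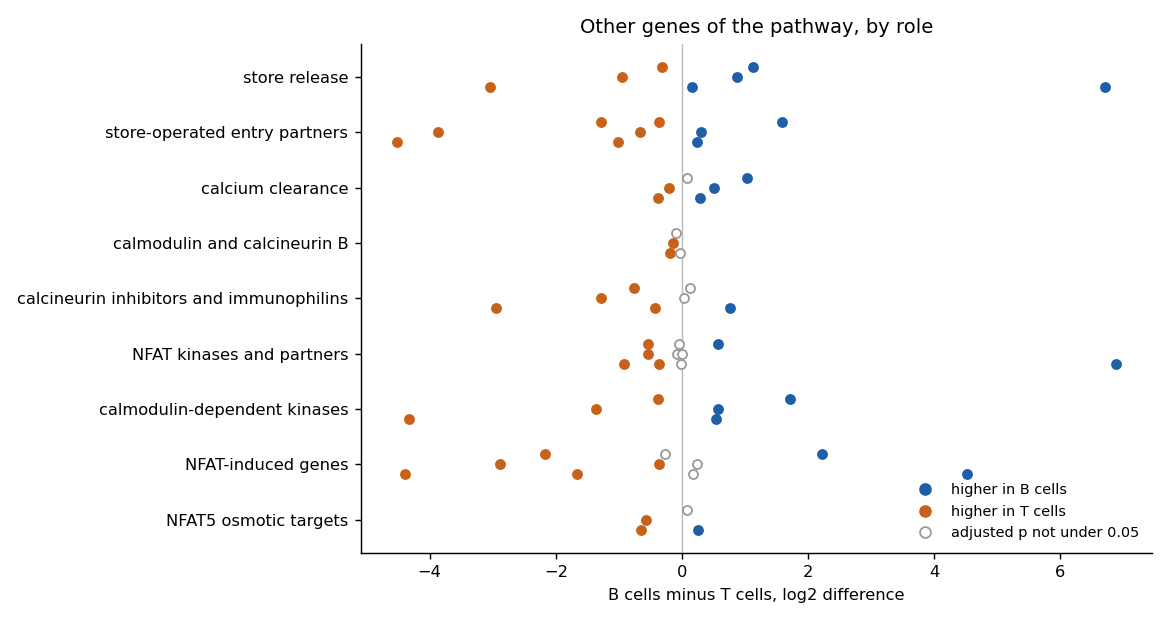
Log2 difference between B and T cells of the 63 other genes of the pathway that passed the filter, 1 point per gene, by role. Blue points were called higher in B cells (19), orange points higher in T cells (31) and open points were not called (13), and the 2 points furthest to the right are Plcg2 and Lrrk2, both near 0 adjusted TPM in T cells.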

How the data were processed

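RNA of sorted cells was depleted of ribosomal RNA and made into stranded libraries per the labels, some fields of which call the material genomic DNA. The values were treated as RNA. The processing notes name Trim Galore, FastQC, STAR and mm10. The authors deposited a signal per gene and library, adjusted TPM, with a lower and an upper bound. The quantifier, the annotation, the adjustment between libraries and the level of the bounds are not given in the sources used here, and the read depth behind a value is unknown. Totals of adjusted TPM ran from 561020 to 1453940 per library. ERCC spikes were not analysed. Coordinates came from GENCODE M21 (GRCm38), in which 40254 of 41128 genes were matched.

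Values were analysed as log2(adjusted TPM + 1) with limma 3.58.1 (mean-variance trend) in R 4.3.3, with 4 group coefficients over 12 libraries, for 12520 genes at 1 or more in at least 3 libraries, and adjusted p-values were taken over all of them. Fold changes on this scale understate those of low genes. Ratios of paralogs were compared by two-sided exact permutation tests over libraries. The fit was tested on simulated data. The 10 genes, the pathway and marker lists and the tests were chosen with earlier results of these data known. All 10 genes were named. Others were the called genes with the largest differences of each role, at most 2 per direction, and the 3 genes nearest in profile to the members with the largest difference in each direction. Other genes were chosen after their values were seen. A gene of the pathway list that met the rule is not reported here.

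Same-numbered female and male libraries deviated together in T cells (r = 0.721, 0.548 and 0.521 over genes) and not in B cells (r = -0.169, -0.038 and -0.337). Unlike-numbered ones ran from -0.457 to -0.016 in T cells and from -0.251 to 0.389 in B cells. The numbers were therefore taken to pair the T cell libraries. Whether B cell libraries of unlike number belong together was not tested. Alternatives were another pseudocount, no filter, other scalings, no trend, 1 sex only, replicate blocks, and leaving out libraries. The p-values measure the spread between pools and treat the 6 T cell libraries as separate. An alternative averaged the pairs.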

Additional observations from a re-analysis of the deposited data

Results flagged for a closer look

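In 3 of 36 sets of 6 libraries (each of the 10 genes and 8 ratios in each cell type), the highest or lowest library lay further from its neighbour than Dixon's critical share of the range, 0.625. Chance alone flags about 1 set in 20. Ppp3cb in B cells was 70.3 adjusted TPM in the female replicate 1 against 61.0 in the next library, a gap of 0.715 of the range. This is the B cell library in which Yam1 held 32.2% of the total. Without it the Ppp3cb difference between B and T cells was still not called. The Orai1/Orai2 ratio in B cells was 0.458 in the female replicate 2 against 0.360 in the next, a gap of 0.629 of the range. The Plcg2/Plcg1 ratio in T cells was 0.0034 in the female replicate 6 against 0.0011 in the next, a gap of 0.716 of the range. It rests on Plcg2 values of at most 0.359 adjusted TPM. The part of any cause in these 3 values was not tested.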

How the results depend on the processing

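The differences of Ppp3ca, Nfat5, Nfatc1, Ppp3cc, Stim1 and Orai1 between B and T cells kept their direction and their call under all 22 alternatives run. Rescaling every library to the same total lowered the number of the 10 genes higher in T cells from 4 to 2 (Stim2 and Nfatc2 lost the call) and that of the pathway list from 31 to 15. Relative to the median of all genes, all 10 genes kept 1 sign under the 3 scalings. A factor per library moves a gene and that median nearly alike, so this was close to fixed in advance and does not test the scaling. Ppp3cb changed sign under median-ratio scaling (0.035), after rescaling to the same total (0.33), in female libraries only (0.03) and without both T cell libraries numbered 6 (0.0014). After rescaling to the same total, the sex difference of Ppp3ca in T cells became 0.19, the difference of the sex effects of Ppp3cb -0.20, and the cell type differences of Calm3 0.18, Mcu 0.13 and Ppp3r1 0.24. Leaving out 1 library at a time, the Orai1/Orai2 log2 ratio difference ran from -0.050 to 0.082, changing sign without the female B cell replicate 2 and the male T cell replicates 5 and 6, and the Nfatc2 sex difference in B cells from -0.27 to 0.011, changing sign without the male replicate 3. The Orai1/Orai2 difference was -0.071 without both T cell libraries numbered 6 and -0.035 without both libraries rich in Yam1. The number of the 10 genes higher in B cells was 4 to 5 and higher in T cells 4 when 1 library was left out. Nfatc3 was called without the female B cell replicate 3 (limma adjusted p = 0.044), the male B cell replicate 2 (0.049), the female T cell replicate 6 (0.028), the male T cell replicate 6 (0.0070) and both libraries rich in Yam1 (0.017). Leaving out 1 library lost the call of Calm3 in 8 of 12 fits, of Ppp3r1 in 10 and of Mcu in 2 (the female B cell replicate 3 and the male B cell replicate 1), and no call of the other named pathway genes. With 1 sex alone, Calm3, Mcu and Ppp3r1 lost the call in either sex, Kcna3 in females, and Slc38a2 and Slc5a3 in males. With the replicate number as a block, 0 of the 10 genes were called between the sexes in B cells, in T cells or for the difference of the sex effects, and with same-numbered T cell libraries averaged to 3 values, which allows for their pairing, the calls of the 10 genes between B and T cells were as before, Nfatc3 included (0.18, limma adjusted p = 0.093). Of the 8 ratios, 7 then stood at the smallest exact permutation p that 84 arrangements allow (0.024, and 0.027 adjusted). For Nfatc1/Nfatc2, Nfat5/Nfatc2 and Plcg2/Plcg1 the separation was fixed by genes that separated in opposite directions. In the pathway list Calm3, Mcu and Ppp3r1 lost the call (limma adjusted p = 0.067, 0.064 and 0.10), and the block changed no other call of the named genes. The list then had 18 genes towards B cells and 28 towards T cells in place of 19 and 31. Over all genes tested the calls fell too, to 3676 and 4847 in place of 3926 and 5208. Between the sexes, no filter raised the calls to 10985 in B cells versus 10607 in T cells, out of 41128 genes. For the difference of the sex effects they rose to 11201. With the filter these calls were 18, 13 and 0 of 12520 genes. The genes added did not reach 1 adjusted TPM in at least 3 libraries, and whether the added calls reflect sex was not tested. Averaging the T cell pairs, leaving out libraries numbered 6 or rich in Yam1, omitting the trend, and splitting the pathway list by sex were chosen after seeing the data. The cause of these changes was not tested. The depth is unknown, so no counting error could be given, and 3 pools a group limit the sex comparisons.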
